A study of Mus musculus with 6 samples.

Results

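The mouse *Serpina1* cluster holds 6 genes, *Serpina1a* to *Serpina1f*, and all 6 were found by gene identifier among the 54532 genes of the deposited kidney RNA-seq table. The cluster was chosen by the measured fall of *Serpina1a*, among the largest decreases in kidneys of mice that overexpress adiponectin, and the members are the paralogues of alpha-1-antitrypsin, so the difference between the 2 groups is described here and was not tested for any of them. Whole kidneys of male C57BL/6 mice were compared between KsprtTA mice, which carry the doxycycline-dependent activator alone (Control; the labels call the genotype wild type), and KSPAPN mice, which also carry adiponectin behind the promoter that it switches on. In these mice the Ksp promoter drives the activator in tubular epithelium. Both groups were fed chow with doxycycline at 600 mg/kg of diet for 4 days. Each group had 3 libraries, and each library was RNA of 3 pooled mice, so that the spread is between pools and not between mice. No age was found in the labels or methods. The sample labels name kidney, although the extraction protocol in them mentions liver. The kidney transcripts *Kap*, *Slc34a1* and *Umod* were abundant in all 6 libraries, and albumin (*Alb*) had at most 4.46 FPKM (fragments scaled to gene length and library size). *Adipoq*, the transgene's product, had 2, 0 and 2 counts in Control and 24629, 17483 and 26811 counts in KSPAPN.

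Alpha-1-antitrypsin is a secreted serine protease inhibitor of the serpin superfamily, made mainly by hepatocytes, that blocks neutrophil elastase. Its reactive loop is cut by the target protease, which is then trapped in a covalent complex. The human genome has a single gene for it, whereas the mouse has several copies whose loops differ, and the small protein is filtered by the glomerulus and taken up by the proximal tubule.

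The 6 genes lie on the minus strand of chromosome 12 (GRCm38, GENCODE M21) between 103688044 and 103958975, a span of 270.932 kb. *Serpina1f* (ENSMUSG00000021081, chr12:103688044-103695529) is at one end and *Serpina1e* (ENSMUSG00000072849, chr12:103946931-103958975) at the other. Between them lie *Serpina1b* (ENSMUSG00000071178, chr12:103728156-103830373), *Serpina1d* (ENSMUSG00000071177, chr12:103763594-103773592), *Serpina1a* (ENSMUSG00000066366, chr12:103853589-103863562) and *Serpina1c* (ENSMUSG00000079015, chr12:103894926-103904887). The annotated span of *Serpina1b* contains that of *Serpina1d*, although their exons do not overlap. Of the 9 other genes between the outermost members, 8 are unprocessed pseudogenes, and these had 4 counts in all 6 libraries together.

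The coding sequences of *Serpina1a* to *Serpina1e* are 1239 bases long and identical at 96.3% to 98.5% of positions in pairs. *Serpina1a* and *Serpina1c* are the closest pair. *Serpina1f* has 1233 coding bases and shares only 62.4% to 63.5% of aligned positions with the others. Among the 5 close copies, 86 coding positions vary, and the 60-base window with the most of them, coding bases 1101 to 1160, holds 18 against a mean of 4.25 per window. That window is shown because it is where these otherwise near-identical transcripts can best be told apart. Capitals mark the positions that vary among the 5 (GRCm38, minus strand; chr12:103853757-103853816, chr12:103728324-103728383, chr12:103895094-103895153, chr12:103763762-103763821 and chr12:103947100-103947159, in this order; GENCODE M21, all in coding exons).
Serpina1a: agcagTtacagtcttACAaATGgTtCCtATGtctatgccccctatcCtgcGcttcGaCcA
Serpina1b: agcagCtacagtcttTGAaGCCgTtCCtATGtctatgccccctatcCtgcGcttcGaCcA
Serpina1c: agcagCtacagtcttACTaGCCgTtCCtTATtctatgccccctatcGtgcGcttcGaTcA
Serpina1d: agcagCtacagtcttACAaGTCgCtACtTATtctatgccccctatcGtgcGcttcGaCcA
Serpina1e: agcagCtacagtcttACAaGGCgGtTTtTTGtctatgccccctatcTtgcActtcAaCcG

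The near identity sets how well reads can be assigned. Of the distinct 100-base stretches of its annotated transcripts, *Serpina1f* had 100% that were found in no other gene, *Serpina1e* 85.6%, *Serpina1b* 85.2%, *Serpina1d* 70.7%, *Serpina1a* 57.2% and *Serpina1c* 30.7%. *Serpina1a* shared 40.8% of its stretches with *Serpina1c*. No source used here gives the handling of reads that match several genes, and the values of *Serpina1a* to *Serpina1e* are uncertain where reads could be split or dropped. *Serpina1c* also has an antisense gene, *B430119L08Rik*, and use of strand in the counting is not stated either.

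*Serpina1d* was the most abundant member in Control by FPKM. Its level was 151, 76.5 and 107 FPKM in Control replicates 1, 2 and 3. It was 8.35, 31.9 and 24.6 FPKM in KSPAPN replicates 1, 2 and 3. The groups did not overlap, with Control replicate 1 highest and KSPAPN replicate 1 lowest. The means were 111 ± 37.3 (SD, n = 3) and 21.6 ± 12.04 FPKM (SD, n = 3), and the log2 fold change from the fit over all genes was -2.37 (SE 0.39).

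*Serpina1a*, the member whose decrease led to the choice of the cluster, also had Control replicate 1 highest and KSPAPN replicate 1 lowest. It had 34.0, 11.7 and 11.2 FPKM in the Control libraries. In KSPAPN it had 1.22, 4.21 and 2.77 FPKM. The lowest Control library was 2.66 times the highest KSPAPN library. Its log2 fold change was -2.81 (SE 0.49), the lowest of the family and place 9 from the bottom among 16017 genes tested. Control replicate 1 was 3.05 times the lowest Control library, and without it the log2 fold change was -2.08 (SE 0.37).

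*Serpina1b* was read at lower levels, with 6.48, 4.23 and 2.57 FPKM in Control. Its KSPAPN libraries had 0.480, 1.495 and 1.18 FPKM. The groups again did not overlap, and the log2 fold change was -2.09 (SE 0.41).

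*Serpina1f*, the diverged member with no shared stretches, had 54.8, 34.6 and 39.8 FPKM in Control. It had 20.5, 31.0 and 25.1 FPKM in KSPAPN. Every KSPAPN library was below every Control library, but the gap was narrow, since the lowest Control library was 1.12 times the highest KSPAPN library. The log2 fold change was -0.75 (SE 0.18), and the means were 43.1 ± 10.5 and 25.6 ± 5.26 FPKM (SD, n = 3 each).

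The other 2 members were near the limit of counting. *Serpina1e* had 16, 5 and 7 counts in Control and 15, 4 and 15 counts in KSPAPN. The log2 fold change of 0.05 (SE 0.59) turned to between -0.23 and 0.64 when a library was left out. *Serpina1c* had 12, 7 and 5 counts in Control and 3, 12 and 4 in KSPAPN and did not pass the filter on low counts. Its ratio of summed counts per total, KSPAPN to Control, was 0.717 with an exact 95% interval of 0.371 to 1.37, which covers counting error only. The groups overlapped for both members.

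Thus 4 of the 5 members that passed the filter had no overlap between groups, all lower in KSPAPN. Of all genes tested, 13.1% had every KSPAPN library below every Control library, and nothing is read from the members' count, since the choice of the cluster used this contrast. Whole kidney holds many cell types, and fewer cells of a type and less RNA per cell cannot be told apart.

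**Figure D1:**
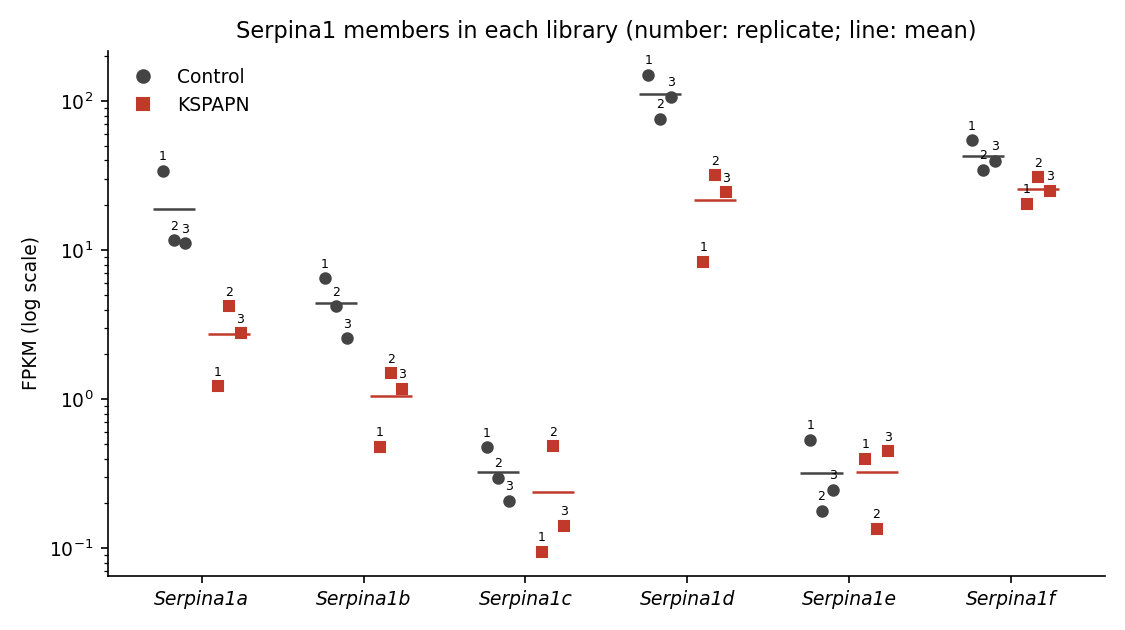
FPKM (log scale) of the 6 *Serpina1* members in each library, with Control as circles, KSPAPN as squares, the replicate number above each point and a line at each group mean. *Serpina1a*, *Serpina1b*, *Serpina1d* and *Serpina1f* do not overlap between groups, and *Serpina1c* and *Serpina1e* stay under 1 FPKM in every library.

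Because reads can be split among the copies, the members were also summed, with *Serpina1f* included although it shares no stretch with another gene. The sum of the 6 was 476, 256 and 313 CPM (counts scaled to library size) in Control. It was 84.8, 159 and 127 CPM in KSPAPN. The groups did not overlap, and the log2 ratio of the group means was -1.50, a 2.82-fold lower mean in KSPAPN. Without Control replicate 1 this log2 ratio was -1.20. *Serpina1a*, *Serpina1b* and *Serpina1d* alone summed to 296, 142 and 181 CPM in Control. In KSPAPN these members summed to 15.7, 56.9 and 43.5 CPM, again with no overlap.

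The make-up of the family differed along with its level. *Serpina1d* gave 45.3%, 42.8% and 49.2% of family counts in Control. In KSPAPN it gave 14.3%, 28.6% and 27.8%. The widest exact (Clopper-Pearson) 95% interval, for counting error only, was 41.3% to 44.3% in Control (replicate 2) and 26.1% to 29.6% in KSPAPN (replicate 3). *Serpina1f* made up 37.6% to 44.2% of the family in Control and 63.6% to 80.5% in KSPAPN. The ranges did not overlap for either gene.

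Proportions among the close copies overlapped between groups. There were 3.37, 4.97 and 7.28 *Serpina1d* counts per *Serpina1a* count in the Control libraries. In KSPAPN there were 5.21, 5.76 and 6.76, within the range of Control. For each *Serpina1b* count the Control libraries held 3.99, 2.10 and 3.30 *Serpina1a* counts, and the KSPAPN libraries held 1.93, 2.14 and 1.78, with 2 of the 3 KSPAPN libraries below the range of Control. The ratio of *Serpina1d* to *Serpina1f* in FPKM, by contrast, was 2.75, 2.21 and 2.69 in Control and 0.407, 1.03 and 0.978 in KSPAPN, with no overlap.

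**Figure D2:**
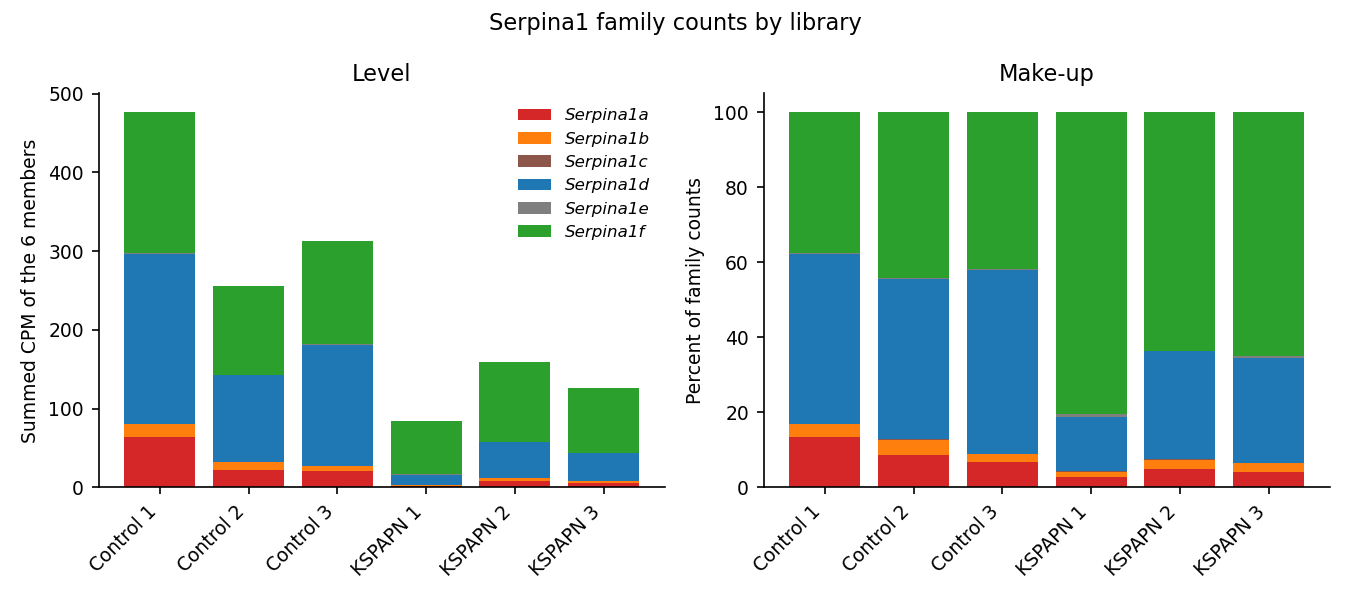
Counts of the *Serpina1* family in each library, as stacked CPM (left) and as each member's percent of family counts (right). The summed level is 256 to 476 CPM in Control and 84.8 to 159 CPM in KSPAPN, and *Serpina1f* takes 63.6% to 80.5% of the counts in KSPAPN.

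Of the members that passed the filter, *Serpina1a*, *Serpina1b*, *Serpina1d* and *Serpina1f* varied together within groups, and *Serpina1e*, near the limit of counting, did not. Over the 6 libraries, log2 CPM of *Serpina1a* had a Pearson r of 0.98 with *Serpina1b*, 0.97 with *Serpina1d* and 0.98 with *Serpina1f* (n = 6 libraries, a description that includes the difference between groups). For deviations from the group means, r was 0.92 with *Serpina1b*, 0.88 with *Serpina1d* and 0.96 with *Serpina1f*, which shares no stretch with *Serpina1a*. It was 0.09 with *Serpina1e*.

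By FPKM the order in Control was *Serpina1d*, *Serpina1f*, *Serpina1a*, *Serpina1b*, *Serpina1c* and *Serpina1e*. The spreads of *Serpina1c* (0.327 ± 0.136 FPKM) and *Serpina1e* (0.320 ± 0.189 FPKM) overlapped (SD, n = 3 each). Those of *Serpina1a* (19.0 ± 13.1 FPKM) and *Serpina1b* (4.42 ± 1.96 FPKM) also did (SD, n = 3 each), although their values in single libraries did not. Within Control replicates 1, 2 and 3 *Serpina1a* was 5.25, 2.77 and 4.35 times *Serpina1b* by FPKM. In KSPAPN *Serpina1f* came first at 25.6 ± 5.26 FPKM, within the spread of *Serpina1d* at 21.6 ± 12.04 FPKM. With CPM per 1000 unique 100-base stretches in place of FPKM, *Serpina1d* in KSPAPN was at 33.8 ± 18.6 and *Serpina1f* at 26.3 ± 5.13 (SD, n = 3 each), which turned their order. *Serpina1c* and *Serpina1e*, near the limit of counting, also changed places in KSPAPN. They had 0.240 and 0.327 FPKM, and 0.865 and 0.421 CPM per 1000 unique 100-base stretches. The order in Control was the same under both measures.

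**Figure D3:**
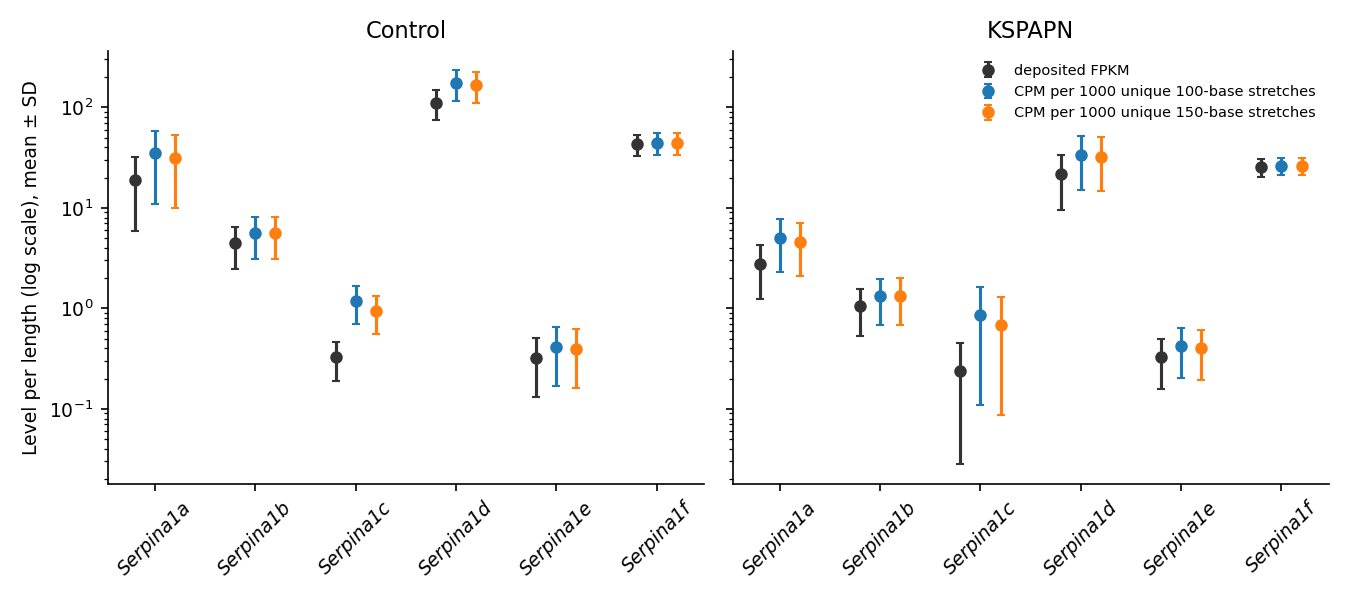
Level per length of each *Serpina1* member (log scale, mean ± SD over 3 libraries) as deposited FPKM and as CPM per 1000 transcript stretches of 100 or 150 bases that occur in no other gene. *Serpina1d* leads in Control under each measure, whereas *Serpina1d* and *Serpina1f* change places in KSPAPN, as do *Serpina1c* and *Serpina1e*.

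The sequence before the start of *Serpina1a* to *Serpina1e* was compared because these genes moved together in part and differ widely in level. RefSeq promoters (GRCm38.p6, 250 bases before to 50 after the start) were found for all 6 members, and those of the 5 close copies are identical at 91.7% to 98.4% of aligned positions. The stretches below run from 40 bases before a run like the known element for hepatocyte nuclear factor 4 (HNF4) to the end of a 15-base run that all 5 share. They lie at chr12:103863626-103863729, chr12:103738201-103738304, chr12:103904963-103905066, chr12:103773635-103773738 and chr12:103956961-103957064, in this order, on the minus strand. All lie upstream of the RefSeq start, and no GENCODE M21 exon overlaps them. Those of *Serpina1b* and *Serpina1d* are in introns of the longer *Serpina1b* annotation, and that of *Serpina1e* is in an intron of *Serpina1e*. Capitals mark the 13 bases at the place of the HNF4-type run and the 15 bases that begin with GTTAAT.
Serpina1a: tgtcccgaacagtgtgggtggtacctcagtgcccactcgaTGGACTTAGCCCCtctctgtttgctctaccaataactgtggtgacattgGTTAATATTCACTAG
Serpina1b: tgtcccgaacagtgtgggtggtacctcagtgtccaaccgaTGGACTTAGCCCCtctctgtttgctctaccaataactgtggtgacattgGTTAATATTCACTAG
Serpina1c: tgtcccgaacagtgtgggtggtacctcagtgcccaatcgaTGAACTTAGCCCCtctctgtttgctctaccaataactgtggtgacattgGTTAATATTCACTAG
Serpina1d: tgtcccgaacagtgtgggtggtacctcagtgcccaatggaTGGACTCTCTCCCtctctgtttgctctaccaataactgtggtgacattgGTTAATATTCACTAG
Serpina1e: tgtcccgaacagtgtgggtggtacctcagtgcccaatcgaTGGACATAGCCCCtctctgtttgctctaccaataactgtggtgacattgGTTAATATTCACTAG

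GTTAATATTCACTAG was found in these 5 promoters and no other of 32817, on either strand, and its first 6 bases, GTTAAT, were in 7.10% of all promoters of the same length. Both runs were taken from the *Serpina1a* promoter itself, so their match there was fixed in advance. TGGACTTAGCCCC was found in *Serpina1a* and *Serpina1b* alone. With at most 1 mismatch, at any place and on either strand, it was in 10 of 32817 promoters. At the same place *Serpina1c* and *Serpina1e* had 1 mismatch to it and *Serpina1d*, the most abundant member in Control by FPKM, had 4. The mismatches are to the letters of *Serpina1a* and not to a measured HNF4 site. The promoter of *Serpina1f* held neither run nor GTTAAT. These matches describe letters in the window and show no binding.

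Among 15 listed regulators of the alpha-1-antitrypsin promoter, 12 were tested, and 1 was lower and 0 were higher at an adjusted p under 0.05 (edgeR quasi-likelihood test, Benjamini-Hochberg over 16017 genes). Of these 12, 5 had an unadjusted edgeR p under 0.05, and DESeq2 called 3 at an adjusted p under 0.05. By edgeR 2.25% of all genes were lower and 0.393% were higher, while 18.7% had an unadjusted p under 0.05 and DESeq2 called 5.77%. The median log2 fold change of the regulators was -0.25, beside 0.01 over all genes tested. *Cebpa*, a leucine zipper factor of hepatocytes and proximal tubule, had 19.7, 15.9 and 14.8 FPKM in Control and 5.91, 8.65 and 6.35 FPKM in KSPAPN. It was lower in all 3 KSPAPN libraries, with a log2 fold change of -1.27 (SE 0.16; edgeR adjusted p = 0.00613). *Hnf4g* had 3.20, 3.38 and 2.57 FPKM in Control and 0.914, 1.997 and 1.19 FPKM in KSPAPN. Its log2 fold change was -1.16 (SE 0.28; edgeR adjusted p = 0.0562), which did not pass, while DESeq2 gave an adjusted p of 0.00329. *Hnf4a* was abundant in every library, from 153 to 205 FPKM, and its groups overlapped. *Onecut1* had 0 counts in every library.

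Other serpins were read as a comparison. Of 21 other clade A serpins, 11 had 0 counts in every library and only 2 were tested, with 0 called and 0 at an unadjusted p under 0.05 (edgeR; DESeq2 also called 0; adjusted p = 0.944 for *Serpina3g* and 0.461 for *Serpina10*). The list summed to 3.49, 3.20 and 4.11 CPM in Control and, higher with no overlap, to 6.10, 4.19 and 5.32 CPM in KSPAPN (p = 0.1 in a two-sided exact permutation test; 0.25 adjusted over 15 lists). *Serpina3k* had 0, 3 and 3 counts in Control and 0, 23 and 34 in KSPAPN, and the list without it summed to 3.49, 3.02 and 3.93 CPM and to 6.10, 2.91 and 3.63 CPM, which overlap. KSPAPN replicates 2 and 3 also held liver transcripts, given below, and their part in this sum was not tested. Of 20 serpins of other clades, 13 were tested and 1 was called by edgeR, with a median log2 fold change of 0.08. At an unadjusted p under 0.05 there were 4, and DESeq2 called 2. The list summed to 671, 657 and 565 CPM in Control and 461, 504 and 537 CPM in KSPAPN, with no overlap (p = 0.1, adjusted 0.25, in the same exact permutation test). That fall rests on 1 gene, since the list without *Serpinf2* summed to 271, 220 and 277 CPM and to 269, 251 and 286 CPM, which overlap. The 1 called by edgeR, also the most abundant by CPM, was *Serpinf2*, the plasmin inhibitor, with 168, 183 and 120 FPKM in Control and 79.4, 107 and 105 FPKM in KSPAPN. Its log2 fold change was -0.69 (SE 0.16; edgeR adjusted p = 0.04995), and the call was lost in 5 of the 6 fits that left out a library, with a log2 fold change of -0.85 to -0.56.

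Serine proteases are the enzymes that most serpins act on. Of 21 listed, 13 were tested and 0 were called by edgeR, with a median log2 fold change of -0.09. At an unadjusted p under 0.05 there were 5, and DESeq2 called 2 at an adjusted p under 0.05. The neutrophil proteases *Elane*, the main target of alpha-1-antitrypsin, and *Ctsg* had 0 counts in every library. *Prtn3*, also a neutrophil protease, had 4, 0 and 0 counts in Control and 7, 0 and 6 in KSPAPN. *Klk1*, tissue kallikrein, was the most abundant by CPM, at 810 to 1383 FPKM over the 6 libraries. Among 18 genes for secretion and quality control of alpha-1-antitrypsin in the endoplasmic reticulum and Golgi, all tested, 1 was called lower and the median was 0.01. This was *Man1a*, a mannosidase that trims N-glycans, at a log2 fold change of -0.67 (SE 0.13; edgeR adjusted p = 0.0259). Its call was lost without Control replicate 1 (adjusted p = 0.113), Control replicate 2 (0.0910) or KSPAPN replicate 3 (0.107). The 6 uptake receptors, with *Lrp2* (megalin) the most abundant, had a median of -0.23 and 0 calls by edgeR, with 2 at an unadjusted p under 0.05 and 0 by DESeq2.

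Cell-type lists give the setting of the members' change. Of 8 markers of the proximal straight tubule, 4 were lower at an adjusted p under 0.05 (edgeR) and 0 were higher, with a median log2 fold change of -0.64. Their summed level was 4170, 4265 and 3757 CPM in Control and 2309, 3167 and 3015 CPM in KSPAPN, with no overlap (p = 0.1 in a two-sided exact permutation test, where 20 arrangements allow none lower; 0.25 adjusted over 15 lists). Of 14 genes higher in male mouse kidney, 5 were lower, with a median of -0.67, and this list shares *Slc7a13* and *Cyp7b1* with the former. *Cyp7b1*, an oxysterol hydroxylase on both lists, had 55.7, 91.3 and 58.1 FPKM in Control and 11.2, 20.004 and 16.7 FPKM in KSPAPN, a log2 fold change of -2.10 (SE 0.23; edgeR adjusted p = 0.00581). Of 15 markers of the whole proximal tubule, 3 were lower, with a median of -0.25. For the straight tubule, male and whole proximal tubule lists, 6, 8 and 5 genes had an unadjusted edgeR p under 0.05. DESeq2 called 6, 5 and 5 at an adjusted p under 0.05. Over all genes tested edgeR called 2.25% lower, 18.7% had an unadjusted p under 0.05 and DESeq2 called 5.77%. The part of any of these lists in the members' difference was not tested.

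Hepatocyte transcripts were set beside the members because liver is the main source of alpha-1-antitrypsin. Of 20 markers 14 were tested, of which 10 had a log2 fold change below 0 and 4 above. Their median was -0.24, which was -0.50 without KSPAPN replicate 2 and -0.05 without KSPAPN replicate 1. By edgeR 1 was called lower, *Ttr*, with a log2 fold change of -1.17 (SE 0.25; edgeR adjusted p = 0.0388). That call was lost without Control replicate 1 (adjusted p = 0.175), Control replicate 2 (0.109) or KSPAPN replicate 3 (0.148). The list summed to 406, 419 and 240 CPM in Control and 252, 319 and 217 CPM in KSPAPN, with *Apob*, which kidney also expresses, the most abundant. The 6 markers with the fewest counts, which were not tested, summed to 7, 9 and 8 counts in Control and 12, 76 and 77 in KSPAPN. Among them *Cps1* had 0, 0 and 0 counts in Control and 1, 14 and 31 in KSPAPN, and *Ahsg* had 1, 0 and 1 in Control and 2, 14 and 15 in KSPAPN. KSPAPN replicates 2 and 3, which held these counts, were also the KSPAPN libraries with more *Serpina1a*. With KSPAPN replicate 2 left out, *Serpina1a* had a log2 fold change of -3.25, and with replicate 3 left out it had -2.83. The part of hepatocyte RNA in the members' levels was not tested.

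**Figure D4:**
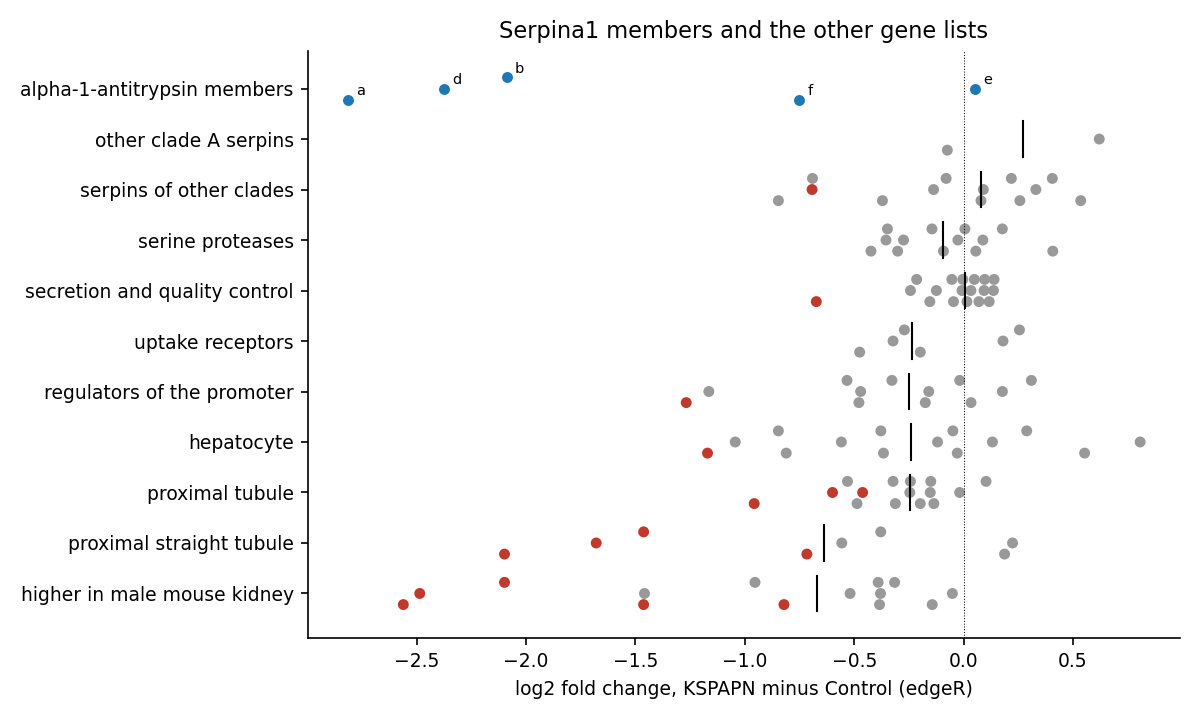
Log2 fold change (KSPAPN minus Control, edgeR) of each tested gene by list, with *Serpina1* members in blue by their last letter, other genes at an adjusted p under 0.05 in red, the rest in grey, and a line at the median of each list other than the members. *Serpina1a* is at -2.81 and *Serpina1f* at -0.75, and the promoter's regulators have a median of -0.25.

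The genes around the cluster were compared with its members. Within 500 kb lay 52 annotated genes outside the family, of which 26 had 0 counts in every library and 10 were tested. Their log2 fold changes ran from -0.76 to 0.62 with a median of 0.08. By edgeR 0 of 10 were called, 1 had an unadjusted p under 0.05, and DESeq2 called 0. That 1 was *Prima1*, at -0.76 (SE 0.27; edgeR adjusted p = 0.159). *Serpina1a*, *Serpina1b* and *Serpina1d* were lower than every tested neighbour by log2 fold change, while *Serpina1f* (-0.75) and *Serpina1e* (0.05) were not. Nothing is read from this order, since the cluster was chosen by the fall of *Serpina1a* in the same contrast.

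The genes most like *Serpina1a* over the 6 libraries were sought among 12244 genes with a mean of at least 1 FPKM. The highest Pearson r of log2 CPM (n = 6 libraries) was 0.996 for *Zbed3*, followed by *Wipi2*, *Atp11a*, *Ces1g*, *Vps8*, *Tmem192*, *Slc6a4*, *Zfp827*, *Qprt* and *Gm21321*, the last at 0.989. Most of these differed far less between groups than *Serpina1a*. *Ces1g*, a carboxylesterase also abundant in liver, came closest in size. It had 12.6, 4.13 and 4.17 FPKM in Control and 0.449, 1.33 and 1.27 FPKM in KSPAPN. Its log2 fold change was -2.79 (SE 0.50), a description with no test, since the gene was chosen for a likeness that includes the difference between groups.

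When group means were removed, the 10 genes most like *Serpina1a* were *Slc35g1*, *Tti2*, *Slc2a4rg-ps*, *Trmt10b*, *Gm2830*, *Kidins220*, *Snapc5*, *Trdmt1*, *Slc6a4* and *Zbed3*, of which 2 were among the first 10. In both lists Control replicate 1 was the highest Control library and KSPAPN replicate 1 the lowest KSPAPN library, as for *Serpina1a*, which follows from choosing genes by this likeness.

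**Figure D5:**
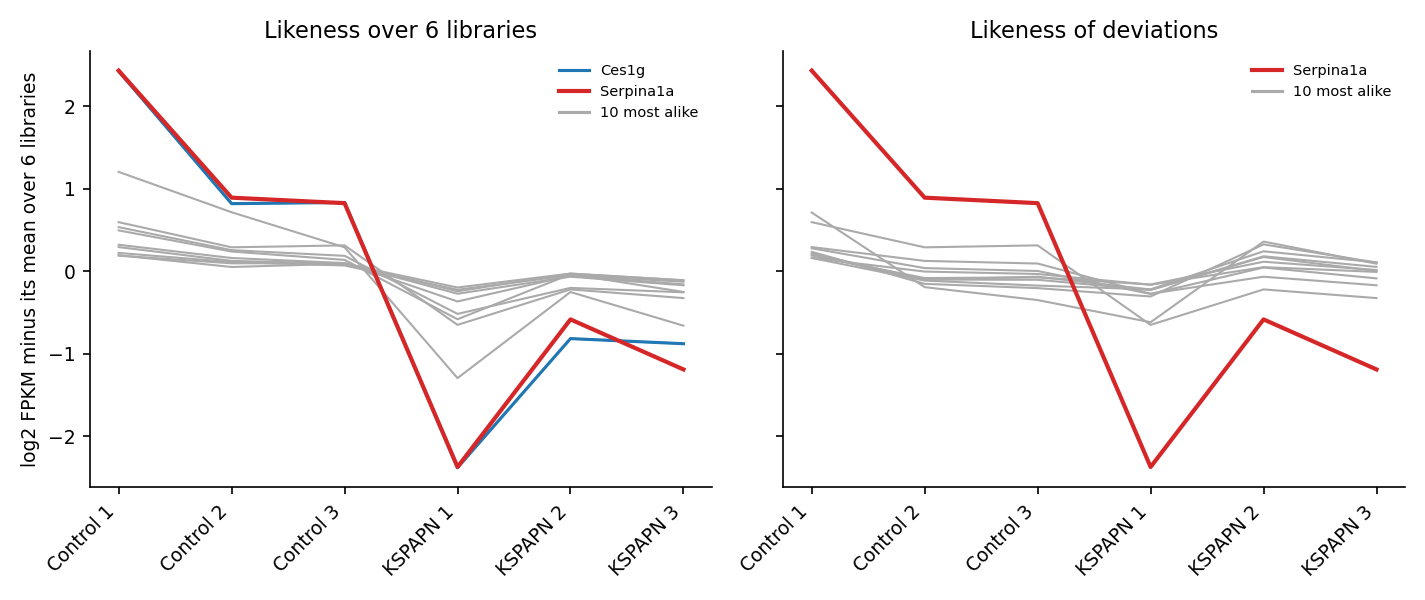
Log2 FPKM minus its mean over the 6 libraries for *Serpina1a* (red) and the 10 genes most like it (grey), by log2 CPM over all libraries (left, with *Ces1g* in blue) and by deviations from group means (right). *Ces1g* follows *Serpina1a* in size, and the other genes differ less between groups.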

How the data were processed

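Members and lists were chosen with earlier results of these data known. The authors deposited unnormalized counts by gene, and FPKM, for 6 pooled kidney libraries (oligo(dT)-selected mRNA). The submitters' processing notes name STAR 2.5, TopHat, HTSeq 0.6.1, DESeq2 and edgeR with no role. Build and strand settings were not stated. Libraries held 17183358 to 20871173 counts. Symbols came from GENCODE M21 for 54495 of 54532 identifiers. Counts were fitted with edgeR 4.0.16 (R 4.3.3; TMM; filter at a minimum count of 10 and total of 15; quasi-likelihood test, two-sided; Benjamini-Hochberg). Alternatives were DESeq2 1.42.0, other size factors, no filter, limma 3.58.1 on log2 FPKM with pseudocounts of 1 and 0.1, the replicate number as a block, and each library left out. Tests were run on simulated counts. When each gene kept its own dispersion, the share of false calls was above the nominal level for edgeR, DESeq2 and limma (there on log2 CPM, not FPKM), and it was near that level when dispersions followed the common trend, a setting chosen after the former was seen. Counts of called genes may therefore hold more false calls than the threshold states. Named genes were the members, list genes (those called, most or least abundant), neighbours within 500 kb and the 10 most like *Serpina1a* by each measure. One of the listed regulators is not reported here. *Kap*, *Slc34a1* and *Umod* were read as tissue checks.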

Additional observations from a re-analysis of the deposited data

How the results depend on the processing

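For *Serpina1a*, *Serpina1b*, *Serpina1d* and *Serpina1f*, all 52 log2 fold changes under the alternatives were below 0. Leaving out libraries gave -3.25 to -2.08, -2.42 to -1.70, -2.76 to -1.97 and -0.91 to -0.54, in this order, and -1.72 to -1.20 for the sum of all members. *Serpina1e* ran from -0.23 to 0.64.

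The counts of called genes depended on the setting. Against 361 lower and 63 higher, total counts only gave 195 lower, DESeq2 746 lower and 178 higher, no filter 1038 and 301, limma on log2(FPKM + 1) 6 and 2, and limma on log2(FPKM + 0.1) 9 and 3. Leaving out libraries gave 34 to 571 lower, fewest without Control replicate 1, and 5 to 162 higher. The cause was not tested.

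The replicate block gave 705 lower and 224 higher, and a log2 fold change of -2.66 for *Serpina1a*. Libraries of the same number had deviations correlated at 0.0537, 0.154 and 0.173, so the numbers were not taken as pairs, although every library correlated best with its own number.

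Of 195 list medians under alternatives, 11 moved by more than the spread. Total counts only gave 0.073 for secretion and quality control and -0.17 for uptake receptors. For genes higher in female kidney limma gave -0.66 and -0.80. Leaving out libraries gave -0.14 to 0.085 for serpins of other clades, -0.28 to -0.14 for uptake receptors, -1.73 to -0.22 for genes higher in female kidney, -0.40 to -0.17 for the proximal tubule and -0.20 to 0.078 for the distal nephron.

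By unique stretches of 100 and of 150 bases, 2 of 6 members kept their place in KSPAPN. By deviations from group means 2 of 10 genes most like *Serpina1a* were shared, and by log2(FPKM + 0.1) 8 of 10. Of 117 log2 fold changes under the alternatives, for the 9 genes outside the family that the text gives with one, 0 changed direction, 30 lost a call and 4 gained one. The lost calls include some of *Ces1g*, which are not read as a result, since its difference is described above with no test.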

Other observations

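Of 4 genes higher in female mouse kidney, 1 was lower at an adjusted p under 0.05 (edgeR), with a median log2 fold change of -1.49, which was -0.22 without Control replicate 1 and -0.66 and -0.80 with limma. *Cyp4a14*, a fatty acid hydroxylase, had 11.0, 25.1 and 9.98 FPKM in Control and 2.62, 2.36 and 2.75 FPKM in KSPAPN, a log2 fold change of -2.56 (SE 0.32; edgeR adjusted p = 0.00613). The log2 fold change was below 0 for 3 of the 4 and above 0 for 1. *Slc7a12* had 12.6, 0.729 and 2.71 FPKM in Control and 0.962, 1.26 and 1.303 FPKM in KSPAPN. *Prlr* had 3.56, 0.387 and 1.29 FPKM in Control and 0.694, 1.19 and 1.15 FPKM in KSPAPN, and both genes overlapped between groups. Control replicate 1, the library with the highest *Serpina1* sum, was thus also the highest Control library for both. The 4 Y-linked genes examined, a list added after seeing the data, summed to 134, 185 and 165 CPM in Control and 180, 209 and 192 CPM in KSPAPN.

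The remaining lists had few calls by edgeR. Of 11 markers of the distal nephron and collecting duct, 1 was higher and 0 were lower, with a median of -0.04. In that list 4 had an unadjusted edgeR p under 0.05, and DESeq2 called 2. The 9 markers of glomerulus, vessels and stroma had a median of 0.14, the 5 tested of 9 for neutrophils and macrophages -0.10, and the 3 tested of 7 for adipocytes 0.34. Leaving out libraries gave medians of 0.014 to 0.33, -0.16 to 0.049 and 0.16 to 0.39, in this order. The direction for neutrophils and macrophages thus turned. By edgeR and by DESeq2 these 3 lists had 0 calls, with 2, 0 and 1 genes at an unadjusted edgeR p under 0.05. The neutrophil transcripts *S100a8* and *Ly6g* had at most 9 and 3 counts in any library.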
